A study of Mus musculus with 59 samples.

Results

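PPARδ binding sites of mouse liver were followed from the fed to the fasted state. A PPARδ peak is a short stretch of the genome where DNA precipitated with an antibody against PPARδ was enriched over input chromatin. The fed list held 7328 peaks and the fasted list 2399, out of 102931 peaks in the 7 lists of the series. A fed peak was called kept when the center of a fasted PPARδ peak lay within 200 bp of its own center, and lost when none did. A fasted peak without a fed peak at that distance was called gained. These definitions gave 1530 kept, 5798 lost and 869 gained peaks, or 8197 regions in all.

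The study mapped 3 DNA-binding proteins, PPARδ, PPARα and the repressor BCL6, by chromatin immunoprecipitation and sequencing (ChIP-seq) to ask how they meet on the liver genome when food is withdrawn. The PPARδ groups were livers of male wild-type C57BL/6 mice that ate *ad libitum* and livers of male wild-type C57BL/6 mice fasted overnight, with 3 replicates in each. Chromatin came from whole liver, so a peak is not assigned to a cell type. Each state has 1 list made from its 3 replicates. A peak is therefore present or absent in a state, without a height, a read depth or a spread between mice. Fewer peaks in a list may reflect less binding, fewer reads or a weaker precipitation, and these cannot be told apart.

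PPARδ is a nuclear receptor that is activated by fatty acids and binds DNA together with a retinoid X receptor (RXR). The pair recognizes the DR1 element, a direct repeat of the half-site AGGTCA with a spacer of 1 bp. The closely related PPARα reads the same element and is the main PPAR of the hepatocyte, where it switches on fatty acid oxidation and ketone body production during fasting. BCL6 is a transcriptional repressor that binds near PPARα at many lipid genes.

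The peaks below show what such elements looked like. For each class they were taken from the peaks nearest to genes of the lists below, leaving out genes named for their number of peaks alone and peaks that touch an untranslated region or an exon of a noncoding transcript. Those with the fewest mismatches in their best DR1 came first, with ties settled by nearness to the peak center. They were read from the mm10 assembly (GRCm38) 5′ to 3′ on the plus strand, with the best DR1 match in capitals. A match on the minus strand appears as its reverse complement. Kept peaks lay in intron 2 of *Elovl6* (a fatty acid elongase), in intron 1 of *Hadh* (a dehydrogenase of mitochondrial β-oxidation), 31406 bp upstream of *Crot* (which hands peroxisomal acyl groups to carnitine) and 186145 bp downstream of the start of the ribosomal protein gene *Rplp1*. Each of these 4 elements had 1 mismatch, and the match near *Rplp1* was on the minus strand.
Elovl6 kept peak (chr3:129582544-129582736): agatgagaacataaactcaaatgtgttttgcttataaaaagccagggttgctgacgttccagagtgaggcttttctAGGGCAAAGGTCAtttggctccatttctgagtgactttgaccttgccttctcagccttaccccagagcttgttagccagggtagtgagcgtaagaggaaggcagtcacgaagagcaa
Hadh kept peak (chr3:131271258-131271450): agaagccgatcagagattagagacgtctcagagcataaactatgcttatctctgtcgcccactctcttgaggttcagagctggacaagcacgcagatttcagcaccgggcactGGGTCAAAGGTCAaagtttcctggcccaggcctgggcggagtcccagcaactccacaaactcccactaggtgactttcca
Crot kept peak (chr5:9028456-9028648): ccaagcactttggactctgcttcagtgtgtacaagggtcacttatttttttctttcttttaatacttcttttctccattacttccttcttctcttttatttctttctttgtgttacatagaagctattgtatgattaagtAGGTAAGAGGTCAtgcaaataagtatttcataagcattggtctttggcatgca
Rplp1 kept peak (chr9:61728269-61728461): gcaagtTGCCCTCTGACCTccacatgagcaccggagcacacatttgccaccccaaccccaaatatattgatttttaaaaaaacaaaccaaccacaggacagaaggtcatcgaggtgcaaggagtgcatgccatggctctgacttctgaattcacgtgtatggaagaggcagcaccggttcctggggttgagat

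Lost peaks could hold an element at least as close to the consensus. The peak 16448 bp upstream of *G6pc*, the gene of the last enzyme of glucose release, matched DR1 with 0 mismatches. So did a lost peak 6783 bp upstream of *Mgll*, a lipase of monoglycerides, which is not printed because it touches such an exon. The others shown lay in intron 4 of *Ror2*, with *Nfil3* as the gene of the nearest protein-coding transcription start site (TSS), and in intron 1 of the mitochondrial carrier gene *Slc25a42*, with 1 mismatch each. All 3 printed matches were on the minus strand.
G6pc lost peak (chr11:101351172-101351364): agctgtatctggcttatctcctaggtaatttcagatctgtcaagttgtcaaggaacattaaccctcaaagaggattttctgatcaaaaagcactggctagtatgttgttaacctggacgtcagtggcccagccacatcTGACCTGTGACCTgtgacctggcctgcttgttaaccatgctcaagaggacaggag
Nfil3 lost peak (chr13:53125982-53126174): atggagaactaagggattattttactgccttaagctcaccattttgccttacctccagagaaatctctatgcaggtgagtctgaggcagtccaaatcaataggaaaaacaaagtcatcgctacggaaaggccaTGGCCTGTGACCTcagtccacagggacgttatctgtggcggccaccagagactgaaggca
Slc25a42 lost peak (chr8:70208166-70208358): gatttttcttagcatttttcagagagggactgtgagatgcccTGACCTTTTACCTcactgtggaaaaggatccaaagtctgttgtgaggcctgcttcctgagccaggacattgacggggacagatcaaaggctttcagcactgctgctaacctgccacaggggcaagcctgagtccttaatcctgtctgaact

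The gained peaks chosen in this way had weaker matches. The peak in intron 18 of *Spidr*, 2548 bp from the TSS of *Cebpd*, had 2 mismatches. The peaks upstream of *Ndufa6* (a respiratory chain subunit) and *Crot* had 3. Outside the choice, a gained peak in intron 1 of *Chst15* had 1 mismatch and 1 near *Cdc7* had 2. Over the whole classes, a perfect match was found in 0.690% of gained, 0.362% of lost and 0.392% of kept peaks, with overlapping intervals.
Cebpd gained peak (chr16:15889732-15889936): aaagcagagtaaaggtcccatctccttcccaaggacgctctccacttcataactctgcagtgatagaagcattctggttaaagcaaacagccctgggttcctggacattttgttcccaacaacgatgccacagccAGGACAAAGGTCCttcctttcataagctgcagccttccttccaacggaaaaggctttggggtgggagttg
Ndufa6 gained peak (chr15:82361433-82361637): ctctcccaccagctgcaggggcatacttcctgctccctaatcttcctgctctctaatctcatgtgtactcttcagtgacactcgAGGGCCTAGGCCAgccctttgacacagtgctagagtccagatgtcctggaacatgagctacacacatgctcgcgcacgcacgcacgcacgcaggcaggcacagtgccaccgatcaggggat
Crot gained peak (chr5:9040654-9040858): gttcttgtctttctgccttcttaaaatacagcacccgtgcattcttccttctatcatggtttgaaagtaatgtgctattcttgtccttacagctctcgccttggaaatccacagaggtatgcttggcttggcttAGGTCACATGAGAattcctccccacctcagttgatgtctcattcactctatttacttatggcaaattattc

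Most of the fed PPARδ peaks had no counterpart after fasting. The 1530 kept peaks were 20.9% of the fed list (95% Wilson confidence interval 19.96% to 21.8%) and 63.8% of the fasted list (61.8% to 65.7%). The 869 gained peaks made up the remaining 36.2% of the fasted list (34.3% to 38.2%). These intervals, like all others below, cover the counting of peaks only. Kept pairs were closely aligned: the median distance between fed and fasted centers was 21 bp, 97.2% of pairs lay within 100 bp, and the widest pair was 184 bp apart. No pair fell between 190 and 200 bp, and 1 lost peak had a fasted peak between 200 and 210 bp, so few calls sat at the edge of the definition. Only 90 lost peaks (1.55%) had a fasted peak between 200 and 1000 bp away.

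Markers of hepatocytes were often nearest to a fed peak. Of 15 hepatocyte markers, such as *Alb* (albumin) and *Cps1* (the first enzyme of the urea cycle), 12 were the nearest protein-coding gene of a fed peak. They had 42 fed peaks in all, of which 8 were kept. Of 15 sinusoidal endothelial markers 8 were nearest to a fed peak, with 14 fed peaks, and of 14 stellate cell markers 2. Of 15 Kupffer cell markers, genes of the resident liver macrophages, 0 were nearest to a fed or gained peak. Across the genome 18.6% of 21774 protein-coding genes were nearest to a fed peak.

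The lists of the factors mapped beside PPARδ changed differently in length. The fasted PPARα list was longer than the fed one, with 29085 peaks against 21410, and the fasted BCL6 list shorter, with 9613 against 15642. List length sets a ceiling on the share kept, which was 32.7% for PPARδ, 61.5% for BCL6 and 100% for PPARα. Below it, 20.9% of fed PPARδ, 48.9% of fed BCL6 (48.2% to 49.7%) and 79.9% of fed PPARα peaks (79.3% to 80.4%) had a fasted peak within 200 bp. The order of these shares follows the order of the ceilings and was not tested apart from them. Seen from the fasted side, 63.8% of PPARδ, 58.8% of PPARα (58.2% to 59.3%) and 79.6% of BCL6 peaks (78.8% to 80.4%) had a fed peak. On this side list length limits PPARα alone, as only its fasted list was longer than its fed list. The PPARα share was not tested apart from that limit.

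The factors can also be read at shared places, where the lengths of the fasted lists still bear on the shares. Of the fed PPARδ peaks, 5899 coincided with a fed PPARα peak. PPARα was called there again in fasted livers at 5599 (94.9%, 94.3% to 95.4%), and PPARδ at 1286 (21.8%, 20.8% to 22.9%). At the 3995 fed PPARδ peaks shared with both PPARα and BCL6, PPARα was called again at 96.1% (95.4% to 96.7%), BCL6 at 70.1% (68.7% to 71.5%) and PPARδ at 21.7% (20.4% to 23.0%).

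Whether PPARδ was kept varied with what happened to PPARα. Where PPARα was called in both states, 1275 of 5599 fed PPARδ peaks were kept (22.8%, 21.7% to 23.9%). At the 300 sites where PPARα itself was called in fed liver only, 11 PPARδ peaks were kept (3.67%, 2.06% to 6.45%). The odds ratio between these groups was 7.75 (4.25 to 15.7, two-sided Fisher's exact test, p = 9.53e-20, adjusted p = 2.86e-19 over 9 tests). Odds ratios here and below were tested over peaks, which are not replicates, so these p-values bear on the lists and not on further mice. Of the 1429 remaining fed PPARδ peaks, 719 met a PPARα peak in fasted liver only, and 15.9% of these were kept (13.4% to 18.7%). The other 710 had PPARα in neither state, and 18.3% of them were kept (15.6% to 21.3%). The sites that lost PPARα thus stood lowest, and the intervals of the latter pair of groups overlapped.

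Fed BCL6 made no detectable difference. PPARδ was kept at 876 of 4207 peaks with fed BCL6 (20.8%) and at 654 of 3121 without it (21.0%), with an odds ratio of 0.992 (0.884 to 1.11, Fisher's exact test, p = 0.907, adjusted p = 0.907). A small difference in either direction fits inside that interval. Split by the fate of BCL6, the kept share was 23.2% (21.7% to 24.8%) where BCL6 was called in both states and 15.6% (13.8% to 17.7%) where it was called in fed liver only. It was 20.8% (16.96% to 25.3%) with BCL6 in fasted liver only and 21.0% (19.5% to 22.5%) with BCL6 in neither. As with PPARα, the lowest share was found where the other factor had gone from the list.

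**Figure D1:**
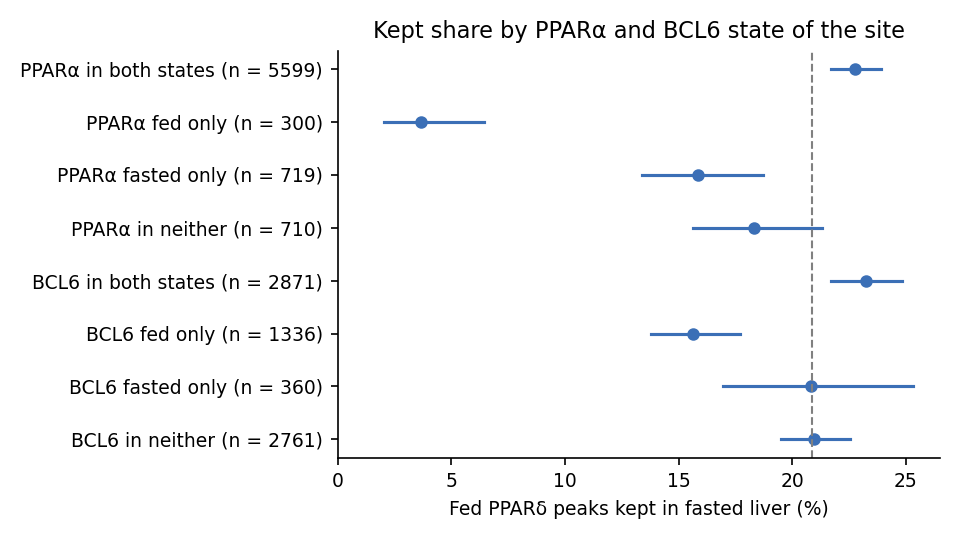
Share of fed PPARδ peaks kept in fasted liver (x axis, percent) at sites grouped by whether PPARα or BCL6 was called in both states, in fed liver only, in fasted liver only or in neither. Points are shares, bars are 95% Wilson intervals, n is the number of fed PPARδ peaks and the dashed line is the share over all 7328 (20.9%). Sites with PPARα in fed liver only sit at 3.67%, and sites with BCL6 in fed liver only at 15.6%.

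Gained peaks had different company. Of the 5798 lost peaks, 90.0% coincided with PPARα in 1 state or both (89.2% to 90.7%), as did 91.5% of the kept peaks (90.0% to 92.8%). Of the 869 gained peaks, 38.6% did (35.4% to 41.8%). BCL6 in either state was found at 62.2% of kept (59.7% to 64.6%), 62.4% of lost (61.1% to 63.6%) and 17.3% of gained peaks (14.9% to 19.9%). Peaks with neither factor were 8.24% of the kept (6.96% to 9.72%), 8.59% of the lost (7.90% to 9.34%) and 60.4% of the gained (57.1% to 63.6%). Read from the fasted list, 534 of the 661 fasted peaks without PPARα in either state were gained (80.8%, 77.6% to 83.6%), against 203 of 1482 with PPARα in both states (13.7%, 12.0% to 15.5%). Kept and lost peaks differed more in the fasted lists of the other factors. Fasted PPARα was found at 90.8% of kept (89.2% to 92.1%) and 85.0% of lost peaks (84.1% to 85.9%), and fasted BCL6 at 48.5% (45.999% to 51.0%) and 42.9% (41.7% to 44.2%). Fed PPARα was also more common in kept peaks, at 84.1% (82.1% to 85.8%) against 79.6% of lost (78.5% to 80.6%). Fed BCL6 stood at 57.3% of kept (54.8% to 59.7%) and 57.5% of lost peaks (56.2% to 58.7%). Gained peaks stood apart from both classes in each of these overlaps.

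**Figure D2:**
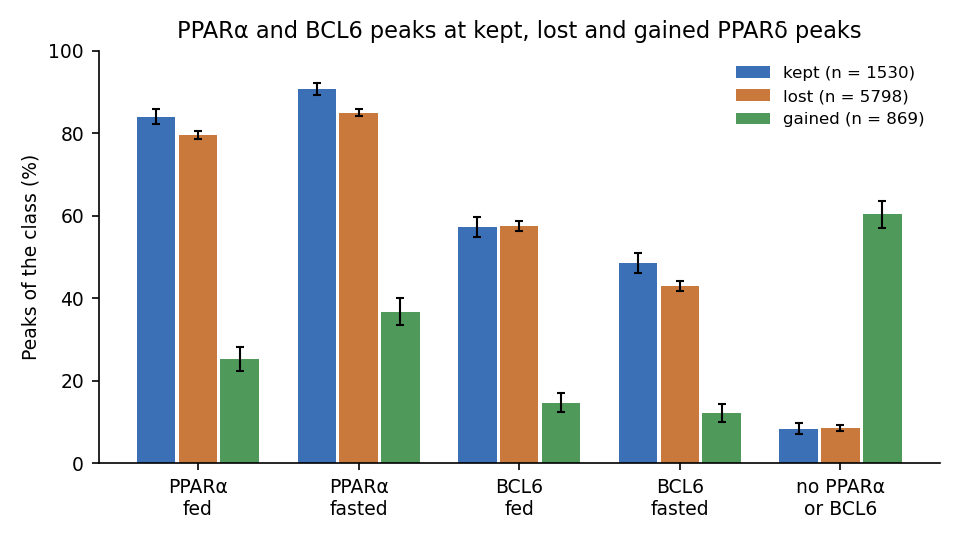
Share of kept, lost and gained PPARδ peaks (y axis, percent) with a PPARα or BCL6 peak in fed or fasted liver within 200 bp, and with none of these. Bars are shares, error bars are 95% Wilson intervals and n is the number of peaks in the class. Gained peaks have neither factor at 60.4%, against 8.24% of kept and 8.59% of lost peaks.

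Gained peaks had no fed peak within 200 bp by definition, and their distances to fed sites were not compared with those of other positions. The median distance from a gained peak to the nearest fed PPARδ peak was 63530 bp, 33 of 869 (3.80%) had a fed peak within 1000 bp, and 150 (17.3%) had a fed peak within 10 kb. Among fed peaks, having a neighbor made little difference. With another fed PPARδ peak within 10 kb, 21.9% of 2755 were kept (20.4% to 23.5%), and without 1, 20.2% of 4573 were kept (19.1% to 21.4%). The odds ratio of 1.11 (0.983 to 1.24) did not pass Fisher's exact test (p = 0.0908, adjusted p = 0.136).

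PPARδ peaks near gene starts were kept somewhat more often. A promoter was taken as the stretch from 1000 bp upstream to 100 bp downstream of an annotated transcript start. Of 476 fed peaks in promoters 128 were kept (26.9%, 23.1% to 31.0%), against 1402 of 6852 elsewhere (20.5%, 19.5% to 21.4%), an odds ratio of 1.43 (1.15 to 1.77, Fisher's exact test, p = 0.00130, adjusted p = 0.00235). By distance to the nearest protein-coding TSS, 27.8% of fed peaks within 1000 bp were kept (24.3% to 31.5%). The share was 20.8% from 1000 to 5000 bp (18.5% to 23.4%), 20.5% from there to 50000 bp (19.2% to 21.8%) and 19.7% beyond (18.0% to 21.4%). The higher share was seen in the bin next to the TSS, and the other 3 had overlapping intervals.

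All 3 classes were mostly distal. Promoters held 8.37% of kept (7.08% to 9.86%), 6.00% of lost (5.42% to 6.64%) and 6.79% of gained peaks (5.30% to 8.66%). Gained and lost peaks did not differ detectably in this share (odds ratio 1.14, 0.842 to 1.52, Fisher's exact test, p = 0.362, adjusted p = 0.466). Outside promoters, 58.2% of kept, 61.5% of lost and 54.5% of gained peaks lay within a gene, and 33.4%, 32.5% and 38.7% lay between genes. The median distance to the nearest protein-coding TSS was 17940 bp for kept, 20931 bp for lost and 28376 bp for gained peaks. More than 50000 bp from a TSS were 26.9% of kept (24.7% to 29.1%), 28.9% of lost (27.8% to 30.1%) and 36.0% of gained peaks (32.9% to 39.3%).

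The fall reached every chromosome but Y. Kept shares ran from 13.6% on chromosome 16 (36 of 265, 9.98% to 18.2%) to 24.4% on chromosome 8 (100 of 410, 20.5% to 28.8%). Chromosome X kept 11 of 77 peaks (14.3%, 8.17% to 23.8%) and Y 1 of 2. Each of the 21 chromosomes was set against the rest by Fisher's exact test. After Benjamini-Hochberg adjustment 0 of 21 (0%) passed at 0.05, and 1, chromosome 16, had an unadjusted exact p under 0.05 (p = 0.00258, adjusted p = 0.0542). Gained peaks were 25.5% of the fasted peaks of chromosome 4 and 43.8% of those of chromosome 16, the autosomes at the ends of that range.

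**Figure D3:**
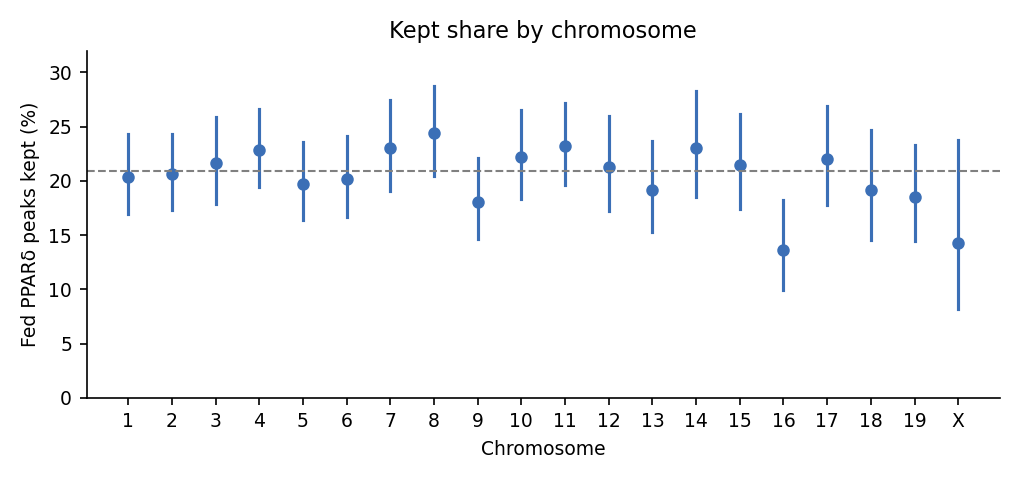
Share of fed PPARδ peaks kept in fasted liver (y axis, percent) on each autosome and X. Points are shares, bars are 95% Wilson intervals and the dashed line is the share over all chromosomes (20.9%). Y, with 2 fed peaks, is left out. Chromosome 16 is lowest at 13.6% and chromosome 8 highest at 24.4%.

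The DR1 element was more common in kept than in lost peaks. A match with at most 2 mismatches in its 12 fixed bases, on either strand and anywhere in the peak, was found in 398 of 1530 kept peaks (26.0%, 23.9% to 28.3%) and in 1136 of 5798 lost peaks (19.6%, 18.6% to 20.6%). The odds ratio was 1.44 (1.26 to 1.65, Fisher's exact test, p = 7.51e-08, adjusted p = 1.69e-07). Gained peaks held it at 18.4% (16.0% to 21.1%), which did not differ detectably from lost peaks (odds ratio of lost to gained 1.08, 0.897 to 1.31, Fisher's exact test, p = 0.435, adjusted p = 0.489). Of 13237130 tiles of 200 bp that cover the genome, 2.34% held such a match. All 3 classes thus carried the element several times as often as the genome. Gained peaks span 204 bp and fed peaks 192 bp between their deposited ends.

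The kept share followed the quality of the element. It was 26.6% for the 293 fed peaks whose best DR1 had 1 mismatch (21.9% to 32.0%), 25.9% for the 1214 with 2 (23.5% to 28.4%) and 22.9% for the 2540 with 3 (21.3% to 24.6%). It then dropped to 18.0% for the 2640 with 4 (16.5% to 19.5%) and 12.5% for the 608 with 5 (10.1% to 15.4%). The 27 peaks with a perfect match kept 6 (22.2%, 10.6% to 40.8%), too few to place. Within sites that had PPARα in both states, 28.4% of peaks with DR1 were kept (25.9% to 31.1%) and 21.3% of those without (20.1% to 22.5%). In promoters the shares were 32.1% with DR1 (24.1% to 41.4%) and 25.3% without (21.2% to 30.0%), and outside promoters 25.5% (23.3% to 27.8%) and 19.1% (18.1% to 20.2%). At sites with PPARα in neither state the intervals overlapped widely, at 19.9% with DR1 (14.3% to 26.9%) and 17.9% without (14.9% to 21.3%).

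The elements sat near the peak centers in every class. The median distance from the center was 25 bp in kept, 29 bp in lost and 25 bp in gained peaks. Within 25 bp of the center lay 49.7% of the elements in kept (44.9% to 54.6%), 42.6% in lost (39.8% to 45.5%) and 49.4% in gained peaks (41.7% to 57.05%).

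Motifs of liver transcription factors were unevenly spread over the classes. These motifs were picked with their values in view, so their shares are given without a test. The HNF6 core ATTGAT, bound by a hepatocyte factor of the Onecut family, was present in 19.9% of lost (18.9% to 20.9%), 12.7% of kept (11.1% to 14.4%) and 6.10% of gained peaks (4.69% to 7.89%), against 10.6% of genome tiles. Read the other way, 14.4% of the 1347 fed peaks with the HNF6 core were kept (12.6% to 16.4%) and 22.3% of the 5981 without it (21.3% to 23.4%). The kept share was 23.6% for the 203 peaks with both DR1 and the HNF6 core (18.3% to 29.9%), 26.3% for the 1331 with DR1 alone (24.0% to 28.7%), 12.8% for the 1144 with the HNF6 core alone (10.95% to 14.8%) and 21.2% for the 4650 with neither (20.1% to 22.4%). Fed peaks with HNF6 and no DR1 were thus kept least.

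The HNF4 and C/EBP motifs were scarcer in gained than in lost peaks too. The HNF4 motif CAAAGTCCA, of a receptor that governs hepatocyte identity, was found in 2.19% of lost (1.84% to 2.60%), 1.24% of kept (0.796% to 1.93%) and 0.460% of gained peaks (0.179% to 1.18%), and in 0.257% of tiles. The C/EBP motif TTGCNNAA was found in 20.8% of lost (19.8% to 21.8%), 306 of the 1530 kept (18.1% to 22.1%) and 13.8% of gained peaks (11.7% to 16.3%), and in 9.38% of tiles. The FOXA motif TGTTTAC was found in 7.26% of lost (6.62% to 7.96%), 8.37% of kept (7.08% to 9.86%) and 5.87% of gained peaks (4.49% to 7.63%), and in 2.997% of tiles, and the intervals of lost and gained peaks overlapped. The PU.1 motif GAGGAAGT, of a factor of macrophages and other blood cells, ran the other way, with 1.28% of lost (1.02% to 1.60%), 1.90% of kept (1.32% to 2.71%) and 2.65% of gained peaks (1.77% to 3.94%), and 1.20% of tiles. Of the remaining motifs, GGGCGG of the SP1 and KLF factors was found in 6.41% of kept, 4.52% of lost and 6.56% of gained peaks, and in 1.92% of tiles. The motif TTCNNNGAA, shared by STAT factors and BCL6, was found in 8.50%, 9.87% and 9.55% of these classes and in 7.45% of tiles. AP-1 (TGAGTCA) stood at 5.23%, 5.42% and 5.06% against 3.10% of tiles, and NF-Y (CCAAT), at 24.4%, 26.9% and 26.2% against 29.6%. For these 3 motifs the classes lay close together. The E-box CACGTG stood at 2.29% of kept, 2.78% of lost (2.38% to 3.23%) and 1.61% of gained peaks (0.962% to 2.69%), against 1.92% of tiles, with overlapping intervals. The single half-site, which is part of every perfect DR1, was found in 40.5% of kept, 37.9% of lost and 35.8% of gained peaks, and in 10.997% of tiles.

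The C/EBP motif was less common in the peaks without PPARα in each class, and in kept and lost peaks so was the HNF6 core. Among the 130 kept peaks without PPARα in either state, 2 held the HNF6 core (1.54%, 0.423% to 5.44%) and 8 the C/EBP motif (6.15%, 3.15% to 11.7%), whereas 30 held DR1 (23.1%, 16.7% to 31.0%). Among the 534 gained peaks of that kind the shares were 5.24% for HNF6 (3.65% to 7.47%), 9.74% for C/EBP (7.50% to 12.5%) and 17.4% for DR1 (14.4% to 20.9%). Lost peaks without PPARα held HNF6 at 15.9% (13.1% to 19.1%) and C/EBP at 14.1% (11.5% to 17.2%), and those with it at 20.3% (19.3% to 21.4%) and 21.5% (20.4% to 22.7%). Kept peaks with PPARα held HNF6 at 13.7% (12.0% to 15.6%) and C/EBP at 21.3% (19.2% to 23.5%). Among the 335 gained peaks with PPARα, 20.3% held C/EBP (16.3% to 24.9%) and 7.46% HNF6 (5.11% to 10.8%), an interval that overlapped that of gained peaks without PPARα.

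**Figure D4:**
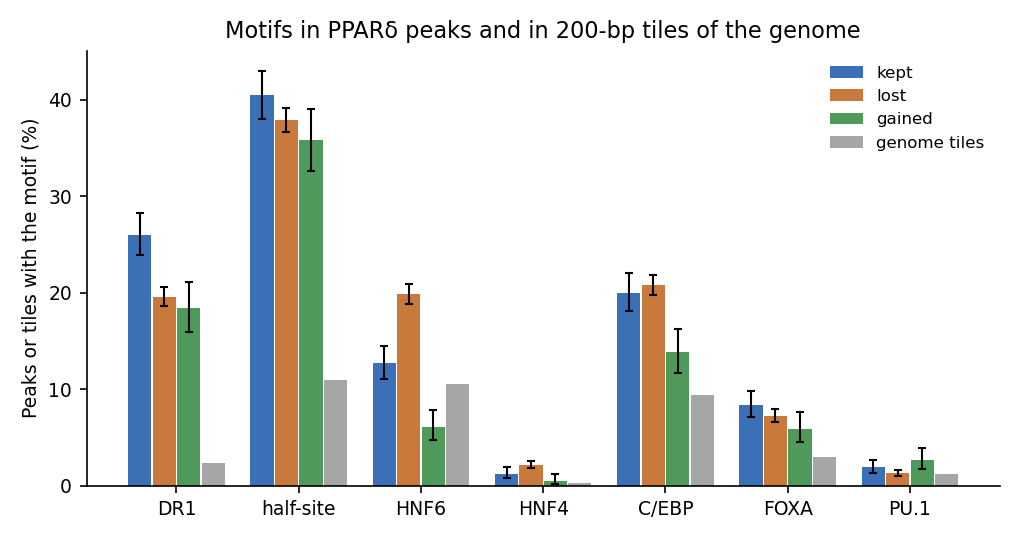
Share of kept, lost and gained PPARδ peaks, and of 200-bp tiles of the genome, that hold each motif (y axis, percent). DR1 allows 2 mismatches, the half-site and the other motifs none, on either strand. Error bars are 95% Wilson intervals for the peaks. DR1 stands at 26.0% of kept and 19.6% of lost peaks, and HNF6 at 12.7% and 19.9%.

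Mean GC content differed little between the classes. The mean GC content was 49.0% ± 7.07 (SD over 1530 peaks) in kept, 47.6% ± 6.83 (SD, 5798 peaks) in lost and 47.9% ± 8.22 (SD, 869 peaks) in gained peaks, and 41.7% in the genome tiles. CpG pairs numbered 1.55, 1.32 and 1.58 per 100 bp, and 0.822 in the tiles. Repeats marked in the RefSeq assembly covered on average 8.19% of the bases of kept, 10.6% of lost and 10.6% of gained peaks, against 36.4% of the tiles. Peaks that were mostly repeat were rarer among kept peaks (1.24%, 0.796% to 1.93%) than among lost peaks (3.64%, 3.19% to 4.15%). Among gained peaks they were 2.76% (1.86% to 4.08%).

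At the level of genes, a fed PPARδ peak was nearest to 4060 protein-coding genes, a kept peak to 1258 (5.78% of all), a lost peak to 3522 (16.2%) and a gained peak to 790 (3.63%). Of the 4060, 31.0% kept at least 1 peak (29.6% to 32.4%), 69.0% lost all (67.6% to 70.4%) and 13.3% kept all (12.2% to 14.3%). A gene with 1 fed peak, as 2420 were, kept it in 20.2% of cases (18.7% to 21.9%). Of 198 genes with at least 5 fed peaks, 71.2% kept 1 or more (64.5% to 77.1%). A gene with more fed peaks has more chances to keep 1. Whether the share of 71.2% differs from what the number of peaks alone would give was not tested. Of the 790 genes with a gained peak, 417 had no fed peak (52.8%, 49.3% to 56.2%). Of all 21774 protein-coding genes 18.6% had a fed peak. Lacking a fed peak was thus less common among genes with a gained peak than among all genes.

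The genes with the most fed peaks were *Myc*, which encodes a growth-promoting transcription factor, and *Plpp3*, a lipid phosphatase, with 15 each. They were followed by the stress-response gene *Gadd45g* and the zinc-finger gene *Rreb1* with 14 each, and *Foxo1*, a fasting-active transcription factor restrained by insulin, with 13. Peaks were counted at the nearest protein-coding TSS, and many lay far from the gene. The closest *Myc* peak lay 1956 bp upstream of the TSS, and the others 71696 to 758758 bp away. The *Foxo1* peaks lay 22753 to 354345 bp downstream. *Myc* and *Gadd45g* kept 5 peaks each, *Rreb1* 4, *Plpp3* 3 and *Foxo1* 2. At *Gadd45g*, 3 of the kept peaks lay within a short interval downstream of the gene, from 51871176 to 51873487 on chromosome 13. *Gm44812* kept 5 of 6 peaks, of which 3 lay in its intron 3, from 70524351 to 70525662 on chromosome 7. *Acsl1* kept 4 of 11, and *Dhrs3*, a retinaldehyde reductase, kept 4 of 8 and gained 2. In each of these genes most or some of the fed peaks were lost, and at *Myc*, *Gadd45g* and *Acsl1* the lost peaks were interspersed with the kept ones.

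Gene lists are described by their counts, without a test, beside the 20.9% kept over all fed peaks. Members that kept a peak were named first, so the named genes can show higher kept shares than their list. The lists for breakdown, uptake and storage of fatty acids had the higher kept shares. For mitochondrial β-oxidation, 17 of 28 fed peaks were kept (60.7%, 42.4% to 76.4%), and 14 of 17 genes with a fed peak kept at least 1. Over all genes with a fed peak, 31.0% kept at least 1. *Acadm*, the medium-chain acyl-CoA dehydrogenase, kept its promoter peak 301 bp upstream of the TSS and another 3761 bp upstream. *Decr1*, which handles unsaturated fatty acids, kept both of its peaks, in intron 1. *Hadh* kept 2 of 4, among them the peak 747 bp into the gene shown above. In this list 42.9% of the fed peaks held DR1, against 20.9% over all fed peaks, and 39.3% lay in promoters, against 6.50%.

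Peroxisomal β-oxidation kept 20 of 50 peaks (40.0%, 27.6% to 53.8%) at 13 of 19 genes. *Crot* and *Abcd3*, a fatty acid importer of the peroxisome, kept 3 of 5 each, and *Acaa1a*, the peroxisomal thiolase, and *Slc27a2*, a very long-chain acyl-CoA synthetase, kept both of theirs. *Ehhadh*, the bifunctional enzyme, kept 1 of 3, at chr16:21782916-21783108 in its intron 1, whereas a peak less than 1000 bp away in that intron was lost.

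Ketone body genes kept 8 of 17 peaks (47.1%, 26.2% to 69.0%). *Bdh1*, which interconverts the main ketone bodies, kept its peak 76 bp upstream of the TSS and 1 further upstream, and lost a peak 65411 bp downstream. *Fgf21*, a hormone of fasting, kept 1 of 2.

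Uptake and activation of fatty acids kept 13 of 28 peaks (46.4%, 29.5% to 64.2%). *Cd36*, a fatty acid transporter, kept 3 of 3 and gained 2, the gained peaks lying 105 bp downstream of a TSS (chr5:17835689-17835893) and 30415 bp upstream of another. *Fabp1*, the fatty acid binding protein of liver, kept 3 of 4, among them the peak 46 bp upstream of its TSS. *Acsl1*, an acyl-CoA synthetase, kept 4 of 11, with 3 of the 4 more than 60 kb upstream, and lost the peaks at its starts.

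Genes of lipid droplets and lipases kept 21 of 49 peaks (42.9%, 30.0% to 56.7%). *Plin2*, a coat protein of lipid droplets, kept 2 of 3, *Cidec* kept 2 of 2, and *Angptl4*, an inhibitor of lipoprotein lipase, kept 1 of 3 and gained 1. The kept *Angptl4* peak lay in intron 3 (chr17:33779271-33779463). *Abhd2* kept 1 of 4 and gained 2. Genes of fuel switching and mitochondrial carriers kept 13 of 34 (38.2%, 23.9% to 55.0%). *Pdk4*, a kinase that spares glucose by blocking pyruvate dehydrogenase, kept 3 of 6, all on the upstream side at 276, 2746 and 13630 bp, and lost the 3 on the downstream side. *Ucp3* kept 3 of 3, *Slc25a42* 1 of 8, and *Idh2* lost its only peak.

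The carnitine shuttle kept 5 of 14 (35.7%, 16.3% to 61.2%), with 1 of 5 at *Cpt1a*, its gatekeeper, and 1 of 1 at *Cpt2*. Microsomal ω-oxidation kept 4 of 17 (23.5%, 9.56% to 47.3%). *Cyp4a31* kept 1 of 3, *Aldh3a2* 1 of 2 and *Por*, the electron donor of the P450 enzymes, 0 of 5. Acyl-CoA thioesterases kept 4 of 15 (26.7%, 10.9% to 52.0%). *Acot2* kept its promoter peak, *Acot4* 1 of 2 and *Acot1* 2 of 4, *Acot12* lost all 4, and *Acot3* was nearest to no PPARδ peak. Lipogenesis and desaturation kept 11 of 42 (26.2%, 15.3% to 41.1%), with 3 of 3 at *Gpam*, 3 of 5 at *Elovl6* and 1 of 2 at *Fads2*, which also gained 1. The intervals of these 4 lists include the share over all fed peaks.

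Among the lists of metabolism and regulation, those of glucose handling and liver regulators had the lower kept shares, although the intervals of these 4 lists reach 20.9%. Low shares were not confined to them. Sinusoidal endothelial markers kept 2 of 14 peaks (14.3%, 4.01% to 39.9%), and keratins and stellate cell markers 0 of 2 each. Gluconeogenesis and glycogen genes kept 7 of 53 peaks (13.2%, 6.55% to 24.8%), with 1 of 3 at *Pck1* and 2 of 3 at *G6pc*. In this list 10 of the 15 genes with a fed peak lost all of theirs. Over all 4060 genes with a fed peak the share was similar, at 69.0%. Receptors and their cofactors kept 7 of 43 (16.3%, 8.12% to 30.0%). *Rxra*, the partner of PPARδ, kept 3 of 9, all more than 50 kb upstream, and lost the peak 82 bp downstream of a start. *Ppara* kept 1 of 7, in intron 2 (chr15:85742681-85742873), and *Bcl6* 1 of 8. *Ppard* itself was nearest to no PPARδ peak in either state. Hepatocyte transcription factors kept 5 of 46 (10.9%, 4.73% to 23.0%), with 2 of 4 at *Onecut1*, the gene of HNF6, and 1 of 7 at *Foxa2*. Circadian clock genes kept 3 of 34 (8.82%, 3.05% to 23.0%). *Hlf* lost all 8 of its peaks, in intron 2, *Rora* lost 6 and gained 1, and *Nr1d1* kept its only peak.

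**Figure D5:**
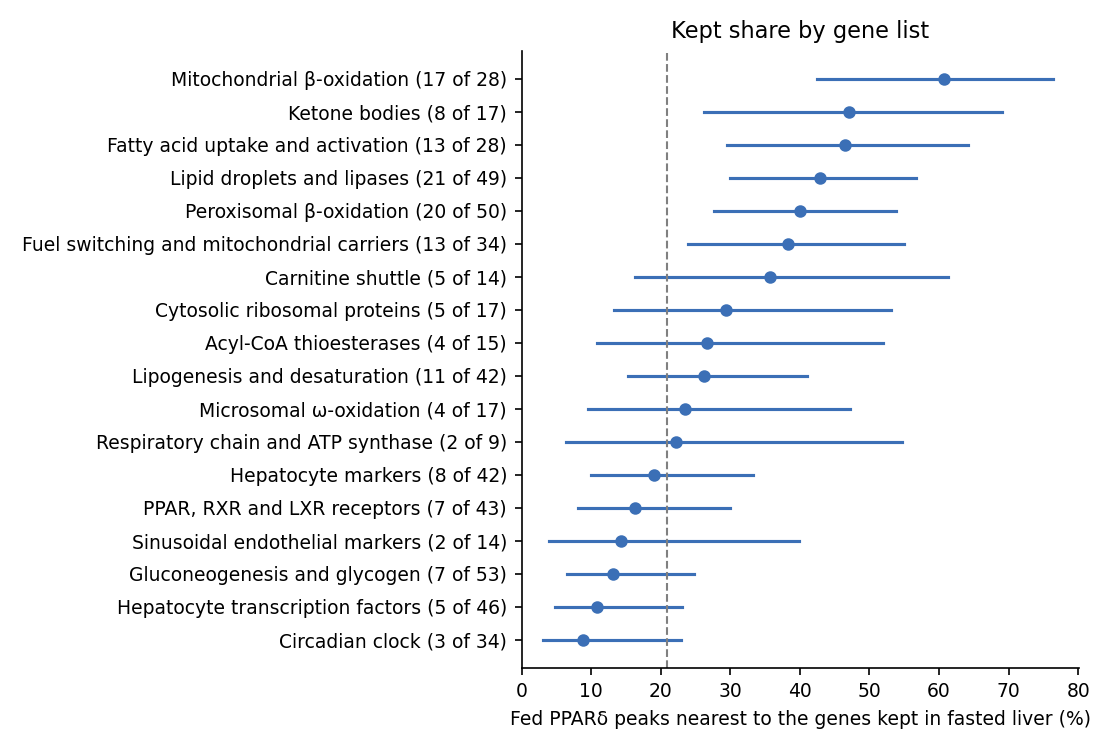
Share of fed PPARδ peaks kept in fasted liver (x axis, percent) among the peaks nearest to the genes of each list with at least 9 fed peaks, with kept of fed peaks in parentheses. Points are shares, bars are 95% Wilson intervals and the dashed line is the share over all fed peaks (20.9%). Mitochondrial β-oxidation is highest at 60.7% and the circadian clock lowest at 8.82%.

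The lists of ribosomal proteins, respiratory chain subunits and keratins had few peaks. A fed peak was nearest to 10.4%, 9.52% and 4.08% of their genes, against 18.6% of all protein-coding genes. Of 77 cytosolic ribosomal protein genes 8 were nearest to a fed peak, and 5 of their 17 peaks were kept (29.4%, 13.3% to 53.1%), 3 of them at distances over 100 kb from *Rplp1*. Of 84 genes of the respiratory chain and ATP synthase 8 were, and 2 of 9 peaks were kept (22.2%, 6.32% to 54.7%). Of 49 keratins 2 were, and both peaks were lost.

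Gained peaks were thinly spread over genes, but they were also fewer, with 869 against 7328 fed peaks. Whether their spread differed from that of fed peaks at equal numbers was not tested. The highest number at 1 gene was 3, reached by *Arhgap15* (a GTPase-activating protein), *Cdc7* (a cell cycle kinase), *Chst15* (a sulfotransferase), *Gm36375* and *Ptger2* (a prostaglandin E receptor) as the first 5 in alphabetical order. The 3 peaks of *Arhgap15*, in introns 6, 8 and 10, and the 3 of *Ptger2*, from 65256 to 87575 bp downstream of its TSS, coincided with no PPARα or BCL6 peak. Of these 5 genes, *Chst15* alone had a fed peak, which was kept.

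Some gained peaks were nearest to markers of other liver cells, at widely varying distances. Of 14 markers of stellate cells, the vitamin A-storing and collagen-making cells of the sinusoid, 4 were nearest to a gained peak, with 6 gained peaks in all at *Reln* (2), *Hgf* (2), *Col1a1* (1) and *Colec11* (1), and both of their fed peaks were lost. Of 15 sinusoidal endothelial markers 3 were nearest to a gained peak (*Kdr*, *Pecam1* and *Cdh5*), and 2 of their 14 fed peaks were kept. Over all protein-coding genes 3.63% were nearest to a gained peak. Of the 15 hepatocyte markers 3 were, and of the 15 Kupffer cell markers 0. The gained *Hgf* peak at chr5:16553437-16553641 lay 44 bp downstream of the TSS and had neither PPARα nor BCL6. The other *Hgf* peak, also without them, lay 237450 bp upstream, in intron 15 of *Cacna2d1*. The gained *Cdh5* peak lay 633615 bp upstream and coincided with fasted PPARα and fed BCL6. These marker lists were added after the peak lists had been seen, and the part of other cell types in the gained peaks was not tested.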

How the data were processed

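Per the labels and the study's methods, the authors mapped reads with Bowtie (mm10), called peaks with HOMER over the replicates of each state against input, and filtered them with DESeq2. The deposited PPARδ lists give positions in bp alone, without normalization, count or score, so the depth is unknown. No column was left unmapped to a sample or group (0).

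Peaks were matched by their centers (200 bp). Genes came from the RefSeq annotation of GRCm38, with the nearest protein-coding TSS within 1 Mb. DR1 (2 mismatches) and 11 motifs were searched on both strands of each peak and of 200-bp genome tiles, tiles with unknown bases excepted. Shares have Wilson 95% intervals. The 9 odds ratios have exact two-sided Fisher's tests with Benjamini-Hochberg adjustment and conditional 95% intervals (Python 3.11.15, NumPy 2.4.6, SciPy 1.17.1). They include the kept shares of PPARδ against PPARα and against BCL6, whose direction the list lengths set. Including these can lower the adjusted p-values of the others. The scripts were tested on simulated data. The members, gene lists and motifs were chosen with earlier results of these data known. Named genes were those the study shows for PPARδ, the 5 with the most fed, kept or gained peaks, up to 5 of each gene list, and *Ppara*, *Ppard* and *Rxra*. Members of a list were taken with a kept peak first, then a gained peak, then the most lost peaks. For each of the 3 classes up to 4 sequences were printed, none that overlap a UTR or an exon of a noncoding transcript. Some named genes and 2 of these sequences are not reported here. Alternatives covered matching distance, promoter width, DR1 stringency, neighbor reach, TSS reach and the BCL6 list of fed *Bcl6* fl/fl livers.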

Additional observations from a re-analysis of the deposited data

How the results depend on the processing

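No paired analysis was possible because each list pools its 3 replicates, and for the same reason no replicate could be left out. A stricter peak threshold was not run, as the lists carry no score. Of 57 alternatives to the 12 results compared, 48 kept direction and side of the threshold, or stayed within the tolerance for counts and shares. The direction of the odds ratios of being kept for PPARδ against PPARα and BCL6 peaks, counted here, is set by the list lengths. With matching at 1000 bp the share kept was 22.1%. At 400 bp, 1 chromosome passed (chromosome 16, smallest adjusted p = 0.0431). With TSSs within 10 kb, 503 genes kept a peak. The odds ratio for a fed neighbor was 1.16 within 50 kb and passed (Fisher's exact p = 0.0179). Lost against gained peaks in DR1 gave 1.21 with 3 mismatches and passed (Fisher's exact p = 0.00870), and turned to 0.903 with 1 mismatch and to 0.882 in 50 bp around the center. The promoter share of gained against lost peaks turned to 0.952 with promoters from 5000 bp upstream to 1000 bp downstream, and the odds ratio for fed BCL6 to 1.08 with the fl/fl list. None of these 4 turned values passed the test, and the cause was not tested. The odds ratio by fasted PPARα ranged from 4.30 at 100 bp to 9.77 at 400 bp. Counts of kept peaks for the gene lists stayed within 1.5 times at each matching distance. Unknown depth limits every comparison between the states.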
